A study of Arabidopsis thaliana with 10 samples.

Results

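The 7 genes described here encode machinery that plant cells use to build a new cell wall between daughter nuclei: *KNOLLE*, *KEULE*, *HINKEL*, *PLEIADE* (also called *MAP65-3*), *TIO*, *EDE1* and *GSL8*. They were chosen by name and function from 33602 genes in the table, with earlier results of these data known. The rule itself uses no measured value. Of these, 6 were found under the locus identifier listed for them. *TIO* was read at AT1G50240, the locus that the annotation calls two-in-one. All 7 were above the low-value filter and are accounted for throughout.

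Their transcripts were measured by RNA sequencing of whole *Arabidopsis thaliana* seeds taken 6 days after pollination (DAP) from 20 siliques per library, with 2 libraries in each of 5 groups. All mothers were wild-type Landsberg (L*er*). Diploid seeds (2n) had Columbia (Col) wild-type fathers, and the 4 triploid groups had fathers carrying *osd1*, a mutation that gives diploid pollen. Triploid seeds (3n) carried *osd1* alone on the paternal side, and the other 3 groups carried in addition *adm* (*adm-2* in the study's methods, here 3n *adm-2*), *suvh7* (*suvh7-1*, here 3n *suvh7-1*) or *peg2* (3n *peg2*). Since the mothers were wild type, seeds of these groups kept a wild-type maternal copy of the mutated gene. The *osd1* allele arose in the Nossen accession and had been introgressed into Col. Seeds of the 2n and 3n groups thus differ in paternal genome dose, in the paternal *osd1* allele and in any Nossen sequence that remained. These differences cannot be told apart here. Each library pools whole seeds, in which endosperm, embryo and seed coat cannot be separated.

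Cytokinesis in plants runs from the inside outwards. Vesicles carried along microtubules of the phragmoplast fuse at the midline into a cell plate, which is filled with callose and then matures into a wall. In the endosperm of *Arabidopsis* the nuclei first divide without walls, and the tissue later cellularizes, when walls form between the nuclei. KNOLLE is the syntaxin that drives vesicle fusion at the plate, and KEULE is the SEC1 protein that binds and activates it. HINKEL is a kinesin that starts the MAP kinase cascade by which the phragmoplast expands, PLEIADE crosslinks its antiparallel microtubules at the midline, and TIO is a FUSED-like kinase needed for its expansion. EDE1 is a microtubule-associated protein required for endosperm cellularization, and GSL8 is a callose synthase that acts at the plate.

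Many genes transcribed at the transition from G2 phase to mitosis carry the core AACGG of the mitosis-specific activator element, which MYB3R transcription factors bind. *KNOLLE* is known to be transcribed at this point of the cycle. The 300 bases upstream of each annotated gene start were therefore searched for this core on both strands, AACGG or CCGTT. The sequence was that of TAIR10.1, the RefSeq version of the TAIR10 assembly. At least 1 match was present in 23.4% of the 27443 windows of protein-coding genes. *HINKEL* and *PLEIADE* had 2 matches each, *KNOLLE* and *GSL8* 1 each, and *KEULE*, *TIO* and *EDE1* 0. The stretches that hold the matches are printed below, each read 5′ to 3′ on the strand of its gene, all on the minus strand, with the core in capitals.
KNOLLE, chr1:2711001-2711032: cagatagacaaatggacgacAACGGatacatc
HINKEL, chr1:6324648-6324678: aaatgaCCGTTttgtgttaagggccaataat
HINKEL, chr1:6324379-6324409: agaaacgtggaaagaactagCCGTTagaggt
PLEIADE, chr5:20964612-20964682: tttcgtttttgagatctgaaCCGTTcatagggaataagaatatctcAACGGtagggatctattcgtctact
GSL8, chr2:15469965-15469992: tatattacatagttggaaggAACGGctc
The *KNOLLE* core began 12 bases before the annotated start, the nearer *HINKEL* core 11 bases before it and the *GSL8* core 8 bases before it. In a window from 250 bases before to 50 bases after the start, which 24.7% of protein-coding genes matched, *KNOLLE* and *PLEIADE* had 3 matches each, *GSL8* 2, *HINKEL* and *EDE1* 1 each, and *KEULE* and *TIO* 0. A match in letters is not evidence of binding, and its absence from these windows says nothing of the factor.

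The table gives RPKM, read numbers corrected for gene length and for library size, so levels of different genes can be set side by side. In 2n seeds *KNOLLE* was the most abundant of the 7 transcripts with a mean of 289 RPKM. *HINKEL* (29.1), *GSL8* (27.8), *PLEIADE* (25.1) and *KEULE* (19.2) followed, and *TIO* (7.41) and *EDE1* (5.53) were the least abundant. In 3n seeds *KNOLLE* averaged 34.3 RPKM and was followed by *GSL8* at 28.1 and *KEULE* at 18.6. *HINKEL* averaged 5.52 RPKM in these seeds, *PLEIADE* 4.43, *EDE1* 2.52 and *TIO* 2.21.

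**Figure D1:**
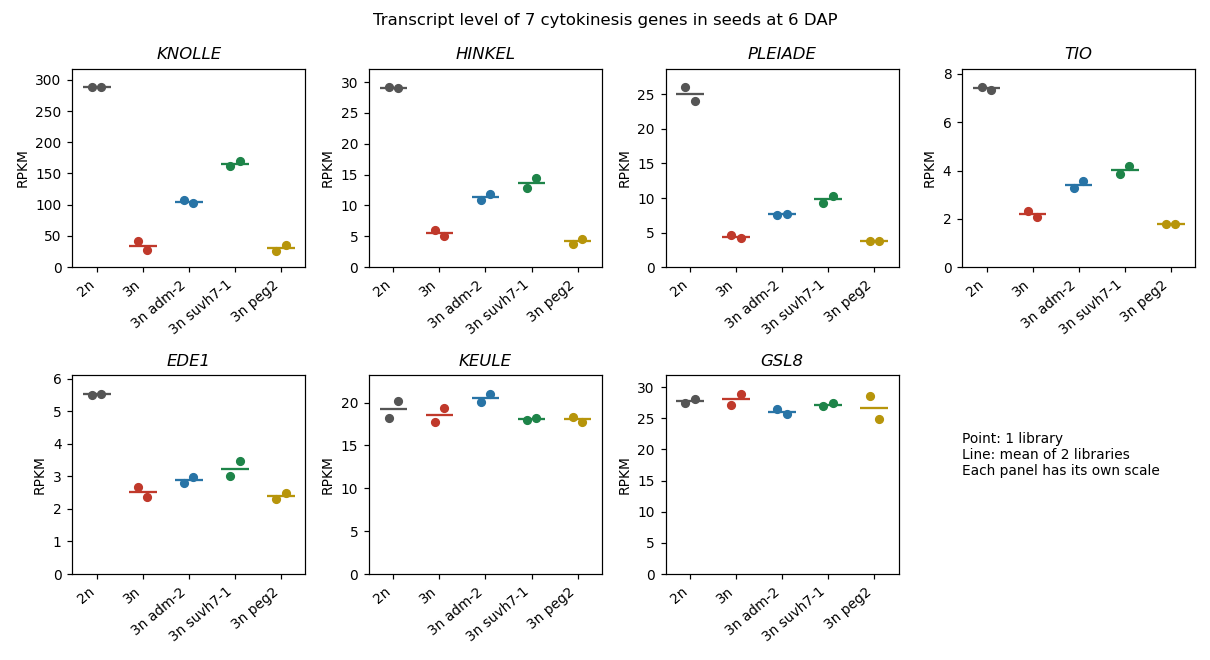
RPKM (linear axis from 0, a separate scale in each panel) of the 7 genes in the 5 groups of seeds. Points are libraries and lines are means of 2 libraries. For *KNOLLE*, *HINKEL*, *PLEIADE*, *TIO* and *EDE1* both 2n libraries lay above all 8 triploid libraries, while the *KEULE* and *GSL8* libraries of 2n and 3n seeds overlapped. How many of all genes separate in this way was not counted.

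The comparison of 3n with 2n seeds asks how the machinery is expressed when an *osd1* father contributes an extra genome. Transcripts of *KNOLLE*, *HINKEL*, *PLEIADE*, *TIO* and *EDE1* were lower in 3n seeds, whereas *KEULE* and *GSL8* did not pass the test. By limma, with a Benjamini-Hochberg adjusted p under 0.05 over 26601 genes, 5 of the 7 were lower and 0 higher. Of all genes tested, 25.2% were lower and 19.5% higher in this comparison. The median log2 fold change was -1.70 over the 7 genes and -0.01 over all genes tested. In bulk seeds, fewer dividing cells and less RNA per cell cannot be told apart.

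*KNOLLE* (AT1G08560, chromosome 1 from 2709525 to 2711000, minus strand, 2 exons) had 289 RPKM in both 2n libraries and 41.8 and 26.9 RPKM in the 3n libraries. The 2 groups were far apart, and the 3n libraries differed from each other more than those of 2n seeds. On the scale of log2(RPKM + 0.1), *KNOLLE* fell by 3.10 (standard error 0.21, adjusted p = 1.1e-05), or 8.60-fold. Of its annotated span, 464 bases overlap *NPQ1* on the opposite strand. *NPQ1* had 5.86 to 10.8 RPKM over the 10 libraries, below *KNOLLE* in every one of them. *KEULE* (AT1G12360, chromosome 1 from 4200864 to 4206486, plus strand, 21 exons) had 18.24 and 20.23 RPKM in 2n and 17.8 and 19.4 RPKM in 3n seeds, so its groups overlapped. Its log2 fold change was -0.05 with a 95% confidence interval from -0.22 to 0.12 (adjusted p = 0.62). The transcripts of the syntaxin and its SEC1 partner therefore stood in another proportion in 3n seeds. The ratio of *KNOLLE* to *KEULE* RPKM was 15.8 and 14.3 in the 2n libraries and 2.35 and 1.39 in the 3n libraries.

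Of the phragmoplast genes, *HINKEL* (AT1G18370, chromosome 1 from 6319450 to 6324378, minus strand, 15 exons) had 29.3 and 29.0 RPKM in 2n and 5.99 and 5.04 RPKM in 3n seeds. It fell by 2.38 on the log2 scale (standard error 0.12, adjusted p = 2.2e-06), or 5.22-fold. *PLEIADE* (AT5G51600, chromosome 5 from 20960779 to 20964537, minus strand, 12 exons) had 26.1 and 24.1 RPKM in 2n and 4.71 and 4.14 RPKM in 3n seeds. The kinesin and the microtubule crosslinker were thus close in level in both groups, with a ratio of *HINKEL* to *PLEIADE* RPKM of 1.12 and 1.20 in 2n libraries and 1.27 and 1.22 in 3n libraries. *PLEIADE* fell by 2.48 (standard error 0.10, adjusted p = 5.1e-07), or 5.57-fold. *TIO* (AT1G50240, chromosome 1 from 18606511 to 18614500, plus strand, 23 exons) had 7.47 and 7.35 RPKM in 2n and 2.34 and 2.08 RPKM in 3n seeds. It fell by 1.70 (standard error 0.12, adjusted p = 1.2e-05), or 3.25-fold, a smaller difference on this scale than those of *HINKEL* and *PLEIADE*. Over 300 bases *TIO* overlaps *FTSH1* on the opposite strand, which had 27.5 and 24.1 RPKM in 2n, 14.5 and 17.9 RPKM in 3n and 15.7 to 19.1 RPKM in the other triploid libraries. Its part in the *TIO* values was not tested.

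*EDE1* (AT2G44190, chromosome 2 from 18272119 to 18274679, plus strand, 6 exons) had 5.52 and 5.55 RPKM in 2n and 2.66 and 2.38 RPKM in 3n seeds. It fell by 1.11 (standard error 0.13, adjusted p = 2.1e-04), or 2.15-fold, and its 2 groups did not overlap. *GSL8* (AT2G36850, chromosome 2 from 15454671 to 15469964, minus strand, 50 exons) had 27.5 and 28.2 RPKM in 2n and 27.2 and 29.0 RPKM in 3n seeds. These libraries overlapped, and the log2 fold change was 0.01 with a 95% confidence interval from -0.16 to 0.18 (adjusted p = 0.92). A p that misses the threshold does not show that *KEULE* and *GSL8* were equal in the 2 groups, but their intervals reached no further than -0.22 and 0.18 on the log2 scale.

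The rank product, the method of the study but written anew here, called 0 of the 7 genes in this comparison at a pfp (percentage of false prediction) under 0.05. Its calls need not be those of the study's own run. *KNOLLE* came closest with a pfp of 0.0866, and over all genes this method called 142 lower and 151 higher, against 6700 and 5194 by limma. With 2 libraries against 2, an exact permutation test of a single gene cannot give a p under 0.333. Groups whose libraries do not overlap are therefore frequent even without a difference. The share of all genes without overlap was not counted in any comparison.

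**Figure D2:**
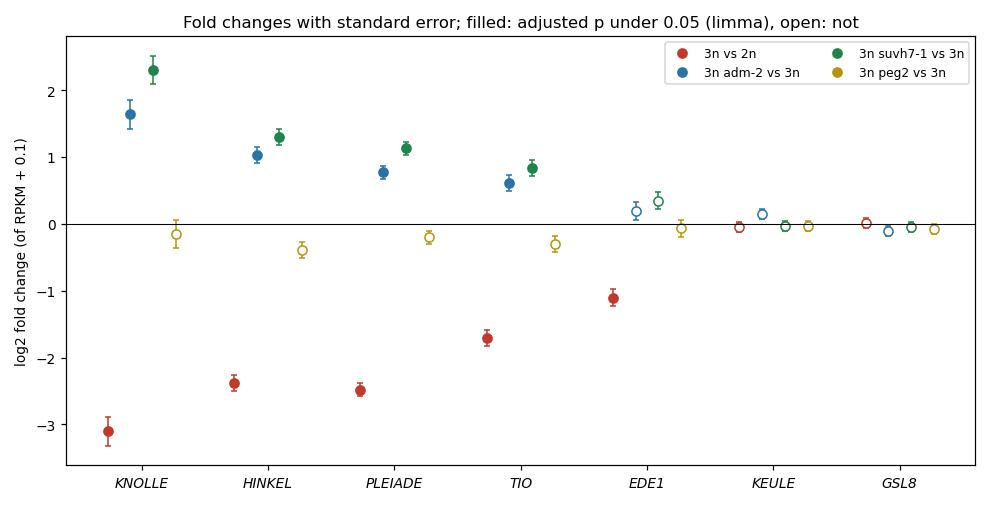
Log2 fold change of RPKM + 0.1 (y axis) with its standard error for each gene (x axis) in 4 comparisons; filled points had an adjusted p under 0.05 by limma. The fold changes of 3n against 2n seeds run from -3.10 for *KNOLLE* to 0.01 for *GSL8*, and those of 3n *suvh7-1* against 3n seeds from 2.30 for *KNOLLE* to -0.05 for *GSL8*.

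The 3 triploid groups with a further paternal mutation were each compared with 3n seeds, to ask whether the machinery differed where the mutation was present. These comparisons, and that of 3n with 2n seeds, share the 2 libraries of 3n seeds. In the libraries of their own mutants, *ADM* had 0.237 to 0.251 RPKM (3n 2.42 to 4.01), *SUVH7* 0.640 to 0.956 (3n 3.09 to 3.16) and *PEG2* 0.0808 to 0.238 (3n 3.54 to 4.10). Low levels were not limited to the own mutant. *PEG2* had 0.908 to 1.34 RPKM in 3n *adm-2* and 0.605 to 0.646 in 3n *suvh7-1* seeds. *ADM* had 0.706 to 0.758 RPKM in 3n *suvh7-1* and 2.23 to 2.82 in 3n *peg2* seeds. *SUVH7* had 3.17 to 3.19 RPKM in 3n *adm-2* and 3.02 to 3.10 in 3n *peg2* seeds.

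In 3n *adm-2* seeds *KNOLLE*, *HINKEL*, *PLEIADE* and *TIO* were higher than in 3n seeds, and *KEULE*, *EDE1* and *GSL8* did not pass the test. The count was 4 higher and 0 lower of 7, against 8.12% higher and 1.85% lower of all genes tested. The median log2 fold change was 0.61 over the 7 genes and 0.10 over all genes tested. *KNOLLE* had 107 and 102 RPKM in the 3n *adm-2* libraries and was higher by 1.64 on the log2 scale (standard error 0.21, adjusted p = 0.0051), or 3.11-fold. *HINKEL* had 10.9 and 11.9 RPKM, higher by 1.03 (standard error 0.12, adjusted p = 0.0038). *PLEIADE*, with 7.50 and 7.73 RPKM, was higher by 0.77 (standard error 0.10, adjusted p = 0.0043). None of these libraries overlapped with those of 3n or of 2n seeds. *TIO* had 3.28 and 3.55 RPKM and was higher by 0.61 (standard error 0.12, adjusted p = 0.022). *EDE1* had 2.81 and 2.97 RPKM, just above its 3n libraries, with a log2 fold change of 0.19 (95% confidence interval -0.10 to 0.49, adjusted p = 0.37). *KEULE* had 20.0 and 21.1 RPKM, a log2 fold change of 0.15 (interval -0.02 to 0.32, adjusted p = 0.24). *GSL8* had 26.5 and 25.6 RPKM, a log2 fold change of -0.11 (interval -0.28 to 0.07, adjusted p = 0.40). The calls for *KNOLLE* and *TIO* rested on having both 3n *adm-2* libraries: without replicate 1 or 2, the adjusted p was 0.0605 or 0.0512 for *KNOLLE* and 0.110 or 0.129 for *TIO*, which also lost its call with size factors (adjusted p = 0.0550) and without 3n replicate 2 (adjusted p = 0.0557). The rank product called 0 of the 7, with a pfp of 0.161 for *KNOLLE*.

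In 3n *suvh7-1* seeds *KNOLLE*, *HINKEL*, *PLEIADE* and *TIO* were higher than in 3n seeds as well. The count was 4 higher and 0 lower of 7, against 4.87% higher and 4.27% lower of all genes tested, and the median log2 fold change was 0.83 over the 7 genes and -0.04 over all. *KNOLLE* had 161 and 169 RPKM and was higher by 2.30 on the log2 scale (standard error 0.21, adjusted p = 9.9e-04), or 4.92-fold. *HINKEL* had 12.8 and 14.5 RPKM, higher by 1.30 (standard error 0.12, adjusted p = 9.9e-04). *PLEIADE* had 9.32 and 10.3 RPKM, higher by 1.13 (standard error 0.10, adjusted p = 8.3e-04). All of these libraries lay between those of 3n and those of 2n seeds. *TIO*, with 3.84 and 4.18 RPKM, was higher by 0.83 (standard error 0.12, adjusted p = 0.0045). *EDE1* had 3.002 and 3.465 RPKM, both above its 3n libraries, and a log2 fold change of 0.35 (interval 0.05 to 0.64) whose unadjusted p of 0.027 became 0.15 after adjustment. *KEULE* had 18.0 and 18.2 RPKM and *GSL8* had 27.0 and 27.4 RPKM. Their log2 fold changes were -0.03 (interval -0.21 to 0.14) and -0.05 (interval -0.22 to 0.13). The rank product called 0 of the 7 here too, with a pfp of 0.0538 for *KNOLLE*.

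In 3n *peg2* seeds none of the 7 genes passed limma's test against 3n seeds. The count was 0 higher and 0 lower, against 0.0865% higher and 0.154% lower of all genes tested, and the rank product called 0 as well. At an unadjusted p under 0.05, limma gave 0 higher and 2 lower genes, *HINKEL* and *TIO*. *KNOLLE* had 25.01 and 36.20 RPKM, which overlapped the 3n libraries, and a log2 fold change of -0.16 with an interval from -0.65 to 0.34. *HINKEL* had 3.79 and 4.55 RPKM, both below its 3n libraries, with a log2 fold change of -0.40 (adjusted p = 0.35). *TIO* had 1.78 and 1.76 RPKM, with a log2 fold change of -0.30 (adjusted p = 0.53). For *PLEIADE* (3.84 and 3.81 RPKM) the log2 fold change was -0.20, with an interval from -0.42 to 0.02. *EDE1* (2.32 and 2.49 RPKM), *KEULE* (18.3 and 17.8 RPKM) and *GSL8* (28.5 and 24.9 RPKM) overlapped their 3n libraries. The confidence intervals of the 7 genes in this comparison reached no higher than 0.34, the upper bound for *KNOLLE*.

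The group means of *KNOLLE*, *HINKEL*, *PLEIADE*, *TIO* and *EDE1* stood in the same order, highest in 2n seeds, followed by 3n *suvh7-1*, 3n *adm-2*, 3n and 3n *peg2* seeds. The first step in this order, from 2n to 3n *suvh7-1* seeds, passed the test for all 5 of these genes, and 23.6% of all genes tested were lower in 3n *suvh7-1* than in 2n seeds. In 3n *suvh7-1* seeds *KNOLLE* had 57.3% of its mean in 2n seeds, *HINKEL* 46.9%, *PLEIADE* 39.0%, *TIO* 54.1% and *EDE1* 58.5%. The difference for *KNOLLE*, -0.80 on the log2 scale (adjusted p = 0.020), lost its call with size factors (adjusted p = 0.0555) and when a 2n or 3n *suvh7-1* library was left out (adjusted p from 0.0667 to 0.0934). In 3n *adm-2* seeds the same 5 genes had 36.2%, 39.1%, 30.3%, 46.1% and 52.2% of their 2n means and passed the test against 2n seeds, as 19.9% of all genes did in this direction. They were also lower in 3n *peg2* than in 2n seeds, with 10.6% (*KNOLLE*), 14.3% (*HINKEL*), 15.2% (*PLEIADE*), 23.9% (*TIO*) and 43.4% (*EDE1*) of the 2n means, against 27.2% of all genes lower.

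**Figure D3:**
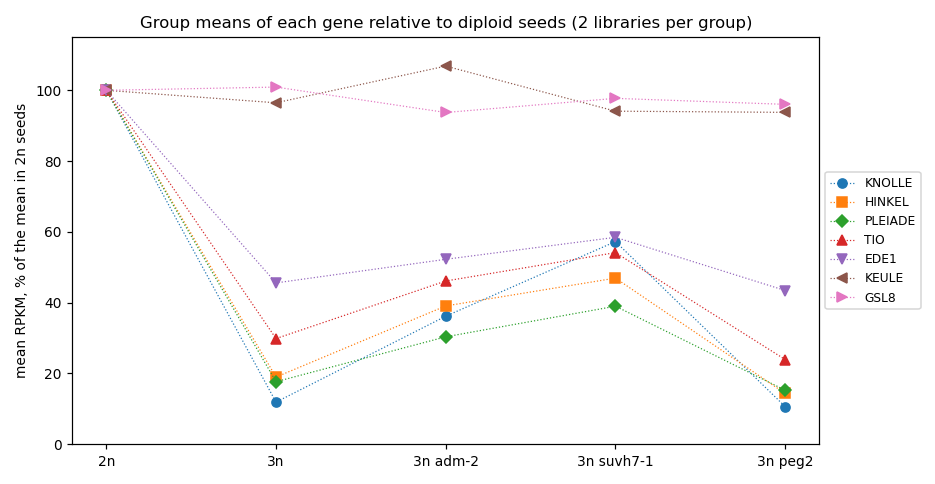
Mean RPKM of each gene in each group as a percentage of its mean in 2n seeds (2 libraries per group; dotted lines only join the points of a gene). *KNOLLE* spans 10.6% to 57.3% over the triploid groups, *EDE1* 43.4% to 58.5%, and *KEULE* and *GSL8* remain between 93.7% and 107%.

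The second step, from 3n *suvh7-1* to 3n *adm-2* seeds, passed the test for *PLEIADE* alone, 1 of 7, where 1.86% of all genes tested were higher in 3n *suvh7-1* seeds. *PLEIADE* was higher by 0.36 (adjusted p = 0.0478), and this call was lost when any library of the 2n, 3n *adm-2*, 3n *suvh7-1* or 3n *peg2* groups was left out (adjusted p from 0.0643 to 0.212) and with a replicate block (adjusted p = 0.0690). *KNOLLE* was 1.58-fold higher in 3n *suvh7-1* than in 3n *adm-2* seeds, 0.66 on the log2 scale, without passing the test (95% interval 0.17 to 1.15, adjusted p = 0.079). It passed when either 3n library was left out (adjusted p = 0.0381 and 0.0382) or when only genes averaging 1 RPKM or more were tested (adjusted p = 0.0469). The differences for *HINKEL* (0.26), *TIO* (0.22) and *EDE1* (0.15) did not pass. Rescaling by size factors moved the median of all genes by 0.12 on the log2 scale in this comparison, from -0.13 to -0.01.

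Between the mutants, *KNOLLE*, *HINKEL*, *PLEIADE* and *TIO* were lower in 3n *peg2* than in 3n *adm-2* seeds, by 1.79, 1.43, 0.98 and 0.91 on the log2 scale (adjusted p = 0.0029, 0.0013, 0.0015 and 0.0037), 4 of 7 against 14.8% of all genes tested. Here too size factors moved the median of all genes by 0.12, from -0.13 to -0.01. These 4 genes were also lower in 3n *peg2* than in 3n *suvh7-1* seeds, with log2 fold changes of -2.45, -1.69, -1.33 and -1.13 (adjusted p = 8.1e-04, 4.6e-04, 4.6e-04 and 0.0013), against 5.72% of all genes. *EDE1* did not pass in either comparison, with adjusted p of 0.19 against 3n *adm-2* and 0.094 against 3n *suvh7-1* seeds. *KEULE* and *GSL8* passed in none of the 10 comparisons between groups. Of the 24 calls that limma made for the 7 genes in the 6 comparisons of the mutants with 2n seeds and with each other, the rank product kept 1, *KNOLLE* in 3n *peg2* against 3n *suvh7-1* seeds (pfp 0.0447).

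The ratio of *KNOLLE* to *KEULE* RPKM within a library followed the same order. It was 8.99 and 9.29 in 3n *suvh7-1*, 5.34 and 4.85 in 3n *adm-2* and 1.37 and 2.04 in 3n *peg2* seeds, the last overlapping the 3n libraries. The ratio of *KNOLLE* to *EDE1* RPKM was 52.4 and 52.1 in 2n seeds, 15.7 and 11.3 in 3n seeds, 38.0 and 34.4 in 3n *adm-2* seeds, and 53.8 and 48.9 in 3n *suvh7-1* seeds. By this ratio the 3n *suvh7-1* libraries lay on either side of those of 2n seeds, although both transcripts were below their 2n levels.

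The 43 further genes of cytokinesis that were listed by function were read in the same way. In 3n against 2n seeds 30 of the 43 were lower and 1 was higher, against 25.2% lower and 19.5% higher of all genes tested. In 3n *adm-2* and in 3n *suvh7-1* against 3n seeds, 13 were higher and 0 lower in each comparison. Of all genes tested, 8.12% were higher and 1.85% lower in 3n *adm-2*, and 4.87% and 4.27% in 3n *suvh7-1* seeds. In 3n *peg2* seeds 0 passed in either direction, against 0.0865% higher and 0.154% lower of all genes. The counts of the single lists below stand beside the same shares.

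Among the 5 SNARE partners of KNOLLE at the cell plate, 2 were lower and 1 was higher in 3n seeds, with a median log2 fold change of -0.04. Of all genes tested, 25.2% were lower and 19.5% higher. *NPSN11*, a Qb-SNARE of the KNOLLE complex, fell from a mean of 39.4 to 24.3 RPKM, by 0.70 on the log2 scale (adjusted p = 1.9e-04), and *SYP71* by 0.29 (adjusted p = 0.0034). The R-SNARE *VAMP722* was higher by 0.49 (adjusted p = 0.0044). *SNAP33*, a partner that also serves other syntaxins, had a log2 fold change of 0.12 (adjusted p = 0.45). None of the 5 passed in the comparisons of mutants with 3n seeds, in which *NPSN11* had a log2 fold change of 0.30 in 3n *adm-2* seeds (adjusted p = 0.054). *SYP112*, the syntaxin most similar to *KNOLLE*, fell by 0.47 in 3n seeds (adjusted p = 0.010). It was 1 of 10 other SYP1 syntaxins and SEC1 proteins, of which 1 was lower and 2, the pollen syntaxins *SYP124* and *SYP125*, were higher in 3n seeds. These 2 were near the floor, *SYP124* with a mean of 0.168 RPKM in 2n and 0.570 in 3n seeds, *SYP125* with 0 and 0.150. *SEC1B*, a relative of *KEULE*, was the 1 gene of this family that passed in a mutant against 3n seeds, higher by 0.47 in 3n *adm-2* seeds (adjusted p = 0.041).

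A list of 7 genes held the kinase cascade that HINKEL activates (*ANP1*, *ANP2*, *ANP3*, *MKK6* and *MPK4*) and 2 phragmoplast genes beside it (*TES* and *RUK*). Of the 7, 4 were lower in 3n seeds and 0 higher, among them both of the latter and 2 of the 5 genes of the cascade itself. *TES*, a kinesin closely related to *HINKEL*, fell from 10.9 to 2.31 RPKM, by 2.19 (adjusted p = 1.1e-05), and *RUK*, an armadillo-repeat kinase of the phragmoplast, from 11.001 to 3.279 RPKM, by 1.72 (adjusted p = 3.2e-05). In the cascade, the MAP kinase kinase *MKK6* and the kinase kinase kinase *ANP3* were lower, with log2 fold changes of -1.07 and -1.24. The related kinases *ANP1* (-0.11) and *ANP2* (-0.03) and the MAP kinase *MPK4* at the end of the cascade (0.05) did not pass. In 3n *adm-2* against 3n seeds 4 of the 7 were higher, *MKK6* by 0.80 (adjusted p = 0.0030), *TES* by 0.69 (adjusted p = 0.030), *ANP3* by 0.60 (adjusted p = 0.027) and *ANP2* by 0.48 (adjusted p = 0.033). In 3n *suvh7-1* against 3n seeds 4 were higher, *TES* by 0.87 (adjusted p = 0.010), *RUK* by 0.84 (adjusted p = 0.0093), *MKK6* by 0.74 (adjusted p = 0.0021) and *ANP3* by 0.66 (adjusted p = 0.015).

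All 11 listed kinesins, microtubule proteins and division-plane proteins were lower in 3n seeds, with a median log2 fold change of -1.73. *TAN1*, which marks the division plane, fell from 16.8 to 3.72 RPKM, by 2.16 (adjusted p = 1.9e-05). The phragmoplast kinesin *PAKRP2* fell from 31.0 to 7.31 RPKM, by 2.07 (adjusted p = 9.6e-07). In 3n *adm-2* seeds 7 of the 11 were higher, with *TAN1* at 1.04 (adjusted p = 0.010) and *MAP65-4* at 0.92 (adjusted p = 0.0064). In 3n *suvh7-1* seeds 8 were higher, with *TAN1* at 1.20 (adjusted p = 0.0037) and *PAKRP2* at 1.06 (adjusted p = 8.3e-04). Among 10 other MAP65 and QWRF proteins, the families of PLEIADE and EDE1, 4 were lower in 3n seeds, with *MAP65-6* at -1.71 (adjusted p = 4.9e-05) and *QWRF1* at -0.86 (adjusted p = 0.0016), and 0 passed in the mutants against 3n seeds.

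Augmin is a complex that takes part in the nucleation of microtubule branches, and EDE1 is related to its subunit AUG8. Of its 8 subunits, 6 were lower in 3n seeds and *AUG2* and *AUG4* did not pass, with a median log2 fold change of -0.40. *AUG1* fell by 0.47 (adjusted p = 0.0019) and *AUG8*, the paralog of *EDE1*, by 0.46 (adjusted p = 0.019). In the comparisons of the mutants with 3n seeds only *AUG2* passed, higher by 0.26 in 3n *adm-2* seeds (adjusted p = 0.032). Of 12 genes of membrane traffic to the cell plate, 7 were lower in 3n seeds, with a median of -0.23. *PATL1*, a patellin of the cell plate, fell from 83.5 to 22.8 RPKM, by 1.86 (adjusted p = 3.4e-05), and was the only gene of this list to pass in the mutants against 3n seeds, higher by 0.94 in 3n *adm-2* (adjusted p = 0.012) and by 0.76 in 3n *suvh7-1* seeds (adjusted p = 0.022). The dynamin-related *DRP1E* fell by 0.53 in 3n seeds (adjusted p = 5.8e-04).

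Among the 11 other callose synthases, 5 were lower and 1 higher in 3n seeds, with a median of 0.01. *GSL1* fell by 1.27 (adjusted p = 5.1e-05) and *GSL12* from 57.9 to 29.8 RPKM, by 0.96 (adjusted p = 4.3e-06), while *GSL4* was higher by 0.72 (adjusted p = 0.0042). *GSL10*, known for a role in pollen division as is *GSL8*, had a log2 fold change of 0.01 (adjusted p = 0.91). In 3n *suvh7-1* seeds *GSL12* and *GSL5* were higher by 0.27 and 0.26 (adjusted p = 0.021 for each), and *GSL4* fell by 0.56 (adjusted p = 0.049).

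**Figure D4:**
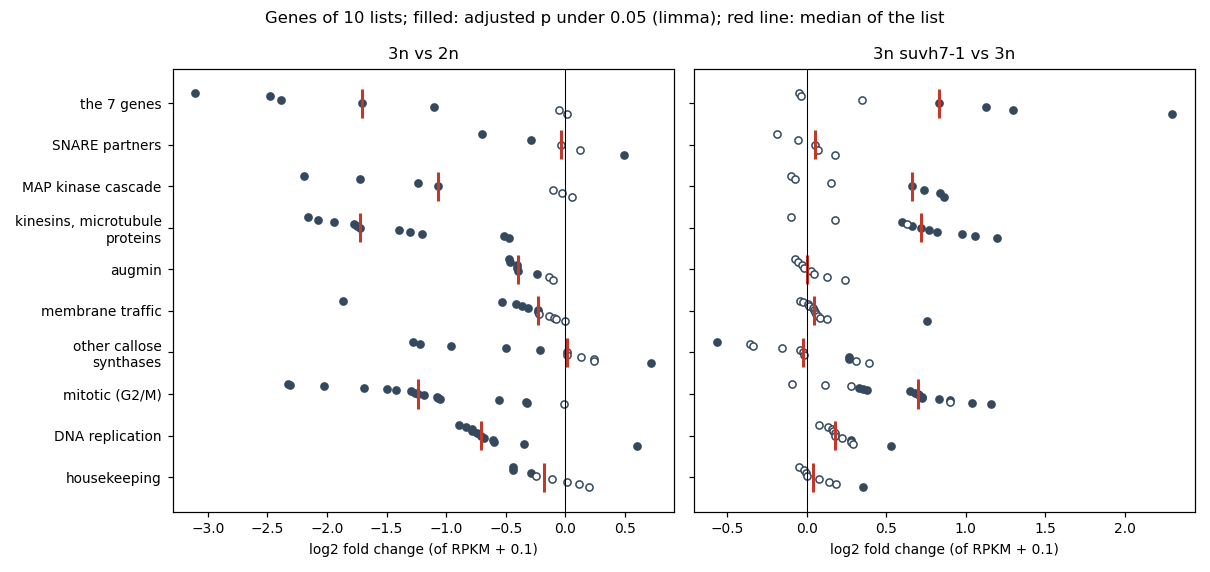
Log2 fold change (x axis, of RPKM + 0.1) of every gene of 10 lists in 3n against 2n seeds (left) and in 3n *suvh7-1* against 3n seeds (right); filled points had an adjusted p under 0.05 by limma and red lines are list medians. The median of the kinesins and microtubule proteins is -1.73 on the left and 0.72 on the right, and that of the housekeeping genes -0.18 and 0.04.

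Genes of mitosis outside cytokinesis were read beside them and beside the same shares of all genes. Of 17 cyclins, kinases and other genes of G2 phase and mitosis, 16 were lower in 3n than in 2n seeds, with a median log2 fold change of -1.23. The B-type cyclins *CYCB2;1* and *CYCB2;2* fell by 2.32 and 2.31 (adjusted p = 8.2e-04 and 1.7e-05). In 3n *adm-2* seeds 14 of the 17 were higher, with *CDC20.2*, an activator of the anaphase-promoting complex, at 1.36 (adjusted p = 0.016) and *CYCB2;2* at 1.15 (adjusted p = 0.0084). In 3n *suvh7-1* seeds 13 were higher, with *CYCB2;2* at 1.16 (adjusted p = 0.0051) and *CYCB1;3* at 1.04 (adjusted p = 0.0072). In 3n *peg2* seeds limma called 0, with 4 lower at an unadjusted p under 0.05.

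Of the 4 listed MYB3R genes, 2 were lower and 0 higher in 3n seeds, against 25.2% and 19.5% of all genes tested. *MYB3R4* and *MYB3R1*, known as activators of genes with the AACGG core, fell by 0.93 and 0.70 in 3n seeds (adjusted p = 4.9e-04 and 6.2e-04). *MYB3R3* (0.14) and *MYB3R5* (0.21) did not pass. *MYB3R4* was higher by 0.76 in 3n *adm-2* (adjusted p = 0.012) and by 0.68 in 3n *suvh7-1* seeds (adjusted p = 0.014), and *MYB3R1* by 0.44 in 3n *adm-2* seeds (adjusted p = 0.033). The core was present in 23.4% of all windows of protein-coding genes. It was present upstream of 11 of the 17 mitotic genes, 6 of the 11 kinesins and microtubule proteins and 3 of the 4 MYB3R genes. Of the 12 genes of cell plate traffic 6 held it, as did 6 of the 11 other callose synthases and 4 of the 8 housekeeping genes. The SNARE partners held it in 2 of 5 genes, the other SYP1 and SEC1 genes in 4 of 10. In the list with the kinase cascade 2 of 7 held it, and 2 of the 10 other MAP65 and QWRF genes. It was present upstream of 1 of the 11 replication genes and 0 of the 8 augmin subunits. Of the 7 genes themselves, *KNOLLE*, *HINKEL* and *PLEIADE* held a core upstream and fell, and *KEULE* held none and did not pass the test. *GSL8* held a core and did not pass, and *TIO* and *EDE1* held none upstream and fell. In the window that reaches past the start, *EDE1* had 1 match. The part of MYB3R factors in these levels was not tested.

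Of 11 genes of DNA replication, 10 were lower in 3n seeds and 1 was higher, with a median log2 fold change of -0.71. *TSO2*, a ribonucleotide reductase subunit, fell by 0.89 (adjusted p = 6.7e-05) and *MCM5*, a subunit of the replicative helicase, by 0.84 (adjusted p = 2.8e-05), while the licensing factor *CDC6* was higher by 0.60 (adjusted p = 0.013). In 3n *adm-2* seeds 1 of the 11 was higher, *CDT1A* by 0.30 (adjusted p = 0.040), and in 3n *suvh7-1* seeds 2, *PCNA2* by 0.53 (adjusted p = 0.0052) and *PCNA1* by 0.28 (adjusted p = 0.036). Of 8 housekeeping genes 3 were lower in 3n seeds, against 25.2% of all genes tested. Of these, *ACT2* and *GAPC1* were at -0.44 each (adjusted p = 6.6e-04 and 0.0036), and the median of the list was -0.18. *ACT2* was higher by 0.35 in 3n *suvh7-1* seeds (adjusted p = 0.011).

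The libraries also differed in markers of seed tissues and stages, which were summed over fixed lists. Endosperm, embryo and seed coat markers were detected in every group, as the label of whole seed calls for, and no marker of any list was at 0 in both libraries of a group. The 6 seed maturation genes (cruciferins, an albumin and oleosins) summed to 207 to 391 RPKM in 2n, 24.3 to 40.9 in 3n, 118 to 123 in 3n *adm-2*, 118 to 163 in 3n *suvh7-1* and 29.0 to 45.4 in 3n *peg2* seeds. Of the 6, 5 were lower in 3n than in 2n seeds, and 5 were higher in 3n *adm-2* and in 3n *suvh7-1* than in 3n seeds. The shares of all genes tested were 25.2%, 8.12% and 4.87%. The oleosins *OLE1* and *OLE2* made up most of these sums and were high and low in the same groups as *KNOLLE*. The cruciferins *CRC* and *CRA1* were not. *CRC* had 0 to 0.0157 RPKM in 2n seeds, 9.34 to 9.45 in 3n *adm-2* and 5.49 to 12.8 in 3n *suvh7-1* seeds, and *CRA1* had 7.59 to 7.90, 15.0 to 16.8 and 14.9 to 24.5 RPKM. Against 2n seeds, 2 of the 6 were higher and 2 lower in 3n *adm-2*, and 3 higher and 2 lower in 3n *suvh7-1* seeds. Of the 26601 genes tested, 6047 were higher and 5297 lower in 3n *adm-2*, and 3358 higher and 6290 lower in 3n *suvh7-1* seeds. The 9 embryo markers summed to 212 to 217 RPKM in 2n, 155 to 157 in 3n, 180 to 188 in 3n *adm-2*, 188 to 198 in 3n *suvh7-1* and 134 to 153 in 3n *peg2* seeds. They did not move together either, with 5 lower and 1 higher in 3n than in 2n seeds, against 25.2% and 19.5% of all genes tested. *LEC1* and *ATML1* made up most of these sums. From 2n to 3n seeds *LEC1* fell from a mean of 129 to 61.9 RPKM, while *ATML1* rose from 52.6 to 79.6 RPKM.

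The 6 endosperm markers did not move together. *ZOU* and *ALE1*, genes of the endosperm around the embryo, were lower in 3n seeds (log2 fold changes of -1.29 and -1.58), whereas *FWA*, *FIS2* and *MINI3* were higher (4.87, 1.35 and 4.51) and *IKU2* did not pass (0.59). Their sum was 43.6 to 47.5 RPKM in 2n, 38.2 to 43.7 in 3n, 41.1 to 41.6 in 3n *adm-2*, 31.4 to 33.0 in 3n *suvh7-1* and 35.7 to 36.6 in 3n *peg2* seeds. The 9 seed coat markers summed to 1224 to 1275 RPKM in 2n seeds and to 1405 to 1579 over the triploid groups. Of these 9, 5 were higher and 1 was lower in 3n than in 2n seeds, against 19.5% and 25.2% of all genes tested. The 3 photosynthesis markers summed to 2201 to 2406 in 2n, 1414 to 1562 in 3n, 1905 to 1913 in 3n *adm-2*, 1458 to 1646 in 3n *suvh7-1* and 1393 to 1659 in 3n *peg2* seeds. Of these 3, 1 was higher and 1 lower in 3n than in 2n seeds, and *RBCS1A*, which made up most of these sums, did not pass. The 8 pollen markers summed to 3.54 to 6.04 RPKM in 2n, 11.4 to 23.2 in 3n and 9.57 to 10.2 in 3n *adm-2* seeds, and to 3.43 to 3.87 in 3n *suvh7-1* and 3n *peg2* seeds. Of these 8, 6 were higher and 1 was lower in 3n than in 2n seeds. Many were near the floor: 5 of the 8 were under 1 RPKM in both 2n libraries. The same held for 3 in 3n, 3 in 3n *adm-2*, 7 in 3n *suvh7-1* and 7 in 3n *peg2* seeds. The part of these tissue and stage differences in the levels of the 7 genes was not tested.

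Finally, the genes with the pattern most like that of each of the 7 were found among 18383 genes averaging 1 RPKM or more, by Pearson's r of log2(RPKM + 0.1) over the 10 libraries. These libraries fall into 5 groups of 2, so r mostly reflects group means, and it is given as a description. The genes most like *KNOLLE* were AT5G50740 (r = 0.997), AT1G04380 (0.995) and *ENODL3* (0.994), an early nodulin-like protein gene. *ENODL3* had 1191 and 1323 RPKM in 2n seeds and 61.6 and 38.2 RPKM in 3n seeds. Those most like *HINKEL* were AT1G05440 (0.999), AT4G21820 (0.996) and the phragmoplast-orienting kinesin *POK2* (0.996), and those most like *TIO* were *PAKRP2* (0.998), AT1G05440 (0.998) and *POK2* (0.997). *PLEIADE* was followed most closely by *FLN1*, a fructokinase-like gene of the chloroplast (0.999), AT4G15830 (0.997) and the A-type cyclin *CYCA1;1* (0.996). *EDE1* was followed by AT4G02800 (0.995), AT3G61670 (0.995) and *SCR* (0.994), a GRAS transcription factor. For *KEULE* and *GSL8*, whose levels moved little, the highest values were 0.955 (AT5G16110) and 0.899 (AT4G10940).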

How the data were processed

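The authors mapped quality-trimmed reads to TAIR10 with TopHat2 2.0.10, allowing 1 alignment per read, and deposited RPKM values for 33602 genes in 1 table. The counting tool and its use of strand are not given in the sources used here, so reads of genes overlapping on opposite strands (*KNOLLE*, *KEULE*, *TIO* and *GSL8* each have such a neighbour) may not be separated. Summed RPKM came to 700509 to 743974 per library. From the steps between low RPKM values and TAIR10.1 exonic lengths, which may differ from those the authors used, depth was estimated at 53.5 to 70.7 M reads. By the same estimate the least covered of the 7 genes, *EDE1*, had at least 285 reads in every library. Pearson's r between replicates was 0.990 to 0.996 across 18383 genes, which are not independent.

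Values were tested as log2(RPKM + 0.1) with limma 3.58.1 in R 4.3.3 (lmFit, eBayes with trend, 2-sided), fitted to all 10 libraries and the 26601 genes with a value above 0 in 2 or more libraries. P-values were adjusted by Benjamini-Hochberg over all genes in each comparison, and no minimum fold change was set. Fold changes understate those of low genes. Replicates are separate seed pools of a cross, and p-values measure the spread between these pools. The rank product (100 permutations, pfp under 0.05) was written anew in Python 3.11.15 with numpy 2.4.6 and pandas 2.3.3, and figures used matplotlib 3.10.9. Both tests were also run on simulated data, in which far fewer genes changed than limma called in 3n against 2n seeds. That run therefore does not show how the tests perform on these data. The 7 genes and all lists (162 genes, all in the table) were chosen with earlier results of these data known. Genes were named by a rule: in each list that holds no tissue markers, the 2 highest and 2 lowest calls averaging 1 RPKM or more in each comparison of a triploid group with its reference, plus *SNAP33*, *NPSN11*, *TES*, *AUG8* and *GSL10*. *SYP124*, *SYP125*, *AUG4*, *ANP1*, *ANP2*, *ANP3*, *MPK4*, *MYB3R3*, *MYB3R5*, further values of *MKK6*, and the tissue and stage markers were named after their values were seen. Loci were matched by identifier to TAIR10.1 for 32835 of the genes, and sequences and positions are from that RefSeq assembly, whose coordinates are those of TAIR10. The alternatives tried were pseudocounts of 1 and 0.01, only genes averaging 1 RPKM or more, no filter, median-of-ratios size factors, the rank product, a replicate block and leaving out each library. Their use on the 6 comparisons of the mutants with 2n seeds and with each other, and a crossed replicate block, were chosen after seeing the data. The labels do not say whether equal replicate numbers pair the seed pools, and the main fit did not treat them as pairs.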

Additional observations from a re-analysis of the deposited data

How the results depend on the processing

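The 28 fold changes of the 7 genes in the comparisons of 3n with 2n seeds and of each mutant with 3n seeds were recomputed under 17 alternatives. Of these 476 values, 457 kept their side of the threshold, and 19 were no longer called. None of the called values changed sign. The rank product called 0 genes lower in 3n against 2n seeds, 0 higher in 3n *adm-2* and 0 higher in 3n *suvh7-1* seeds, where limma called 5, 4 and 4. With a library left out, the genes higher in 3n *adm-2* seeds numbered 2 to 4 (2 without either 3n *adm-2* library), those lower in 3n seeds stayed at 5 and those higher in 3n *suvh7-1* seeds at 4. A lone library is then assumed to vary like the other groups. The cause was not tested, although fewer libraries leave fewer degrees of freedom. Same-numbered replicates deviated from their group means with r of 0.01, -0.07, -0.09 and -0.17 in the 4 comparisons. These values show no strong shared deviation, but they cannot settle whether the numbers pair the samples. With the replicate block, the members called remained 5 lower in 3n seeds, 4 higher in 3n *adm-2*, 4 higher in 3n *suvh7-1* and 0 in 3n *peg2* seeds. Over all genes the block gave 1747 higher and 313 lower in 3n *adm-2* seeds in place of 2161 and 493. For 3n *peg2* seeds the block gave 16 higher and 21 lower, and the crossed block, chosen after seeing the data, 15 and 21, in place of 23 and 41, with 0 members called in each. Of 714 values in the other 6 comparisons under the same 17 alternatives, 674 kept their side of the threshold. The rank product lost 23 of 24 calls, and the other alternatives lost 14 and gained 3, all for *KNOLLE* or *PLEIADE*. With 2 libraries per group, precision is limited by the number of seed pools.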
